A study of Xenopus tropicalis with 3 samples.

Results

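Fibroblast growth factor (FGF) genes, their receptor genes and the Sprouty and Spred genes that restrain the pathway were examined in an accessibility profile of the frog urostyle at stage 65. The urostyle is the bony rod behind the sacrum of frogs. The members were all protein-coding genes on chromosomes 1 to 10 of the UCB_Xtro_10.0 gene table whose symbol begins with fgf, fgfr, spry or spred followed by a digit. This gave 33 of 21749 genes: 20 ligands, 4 receptors, 4 Sprouty genes, 3 Spred genes, and fgfr1op and fgfr1op2, which the pattern also takes in. Those last 2 genes are named for fusions with a receptor gene and encode neither ligands, receptors nor inhibitors. The rule used symbols and positions only.

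The study profiled Xenopus tropicalis urostyle by Omni-ATAC, an assay that tags DNA where nucleosomes leave it open, with 1 library each at stages 56, 61 and 65 of metamorphosis. The labels name no strain, genotype, treatment or sex, and describe dissected tissue crushed with a pestle, while the series text mentions laser capture. Stage 56 gave 4564 peaks, stage 61 gave 6806 and stage 65 gave 311625. The signal column holds a peak area at stages 56 and 61 and a fold at stage 65, so the lists differ in kind. Whether the counts reflect a change in accessibility was not tested. The lists of stages 56 and 61 lie on other coordinates than the gene table. On chromosome 1 their last peaks end at 194261381 and 194771579, against 217471066 at stage 65. The genes below were therefore read at stage 65 only. With 1 library there is no replicate spread, no test was made, and intervals cover counting error only. In a bulk library, fewer cells with an open site and a less open site in every cell cannot be told apart.

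FGF ligands are secreted signals that bind receptor tyrosine kinases together with heparan sulfate chains or, for the endocrine ligands, Klotho proteins. The receptors pass the signal through the adaptor FRS2 and a kinase relay, and Sprouty and Spred proteins are induced by it and damp it. In the skeleton the pathway is known for limb bud outgrowth, for the control of growth plate cartilage through FGFR3, and for osteoblast differentiation through FGFR1 and FGFR2. Ligands of the FGF11 subfamily differ, since they stay inside the cell and bind voltage-gated sodium channels.

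Nearly all of these genes carried an accessible site at an end, mostly with low folds. A peak was called within 1 kb of a gene end at 30 of 33 members (90.9%, exact 95% interval 75.7 to 98.1), against 85.7% of all coding genes and 87.0% of other genes of matching length, taken from the same of 10 equal bins of gene length. Both ends were occupied at 20 of 33 (60.6%, 42.1 to 77.1), against 45.2% of all coding genes and 43.6% in the same length bins. By ligand subfamily the count was 0 of 2 (FGF1), 3 of 3 (FGF4), 2 of 4 (FGF7) and 0 of 1 (FGF8). It was 3 of 3 (FGF9), 2 of 3 (FGF19) and 2 of 4 (FGF11) in the rest. Receptors had 3 of 4, Sprouty genes 2 of 4, Spred genes 2 of 3 and the other symbols 1 of 2. A gene-end peak with a fold of at least 5 was present at 6 of 33 (18.2%, 6.98 to 35.5), against 31.7% and 32.4%. The fold was read as the fragment pileup at the summit over a genome-wide background of 5.68 fragments, with 1 added to both. This reading was inferred from the even spacing of the deposited folds. All 3 intervals include the values of the length bins. They treat the genes as independent, which linked members are not, and no test of a difference was made. Taking each gene's highest gene-end fold, and 0 where it had none, the median was 3.74 over members and 4.04 over all coding genes and over the same length bins. As the gene table holds no strand, the ends are told apart only as the lower-coordinate and the higher-coordinate end, and which of them is the promoter is not known here.

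**Figure D1:**
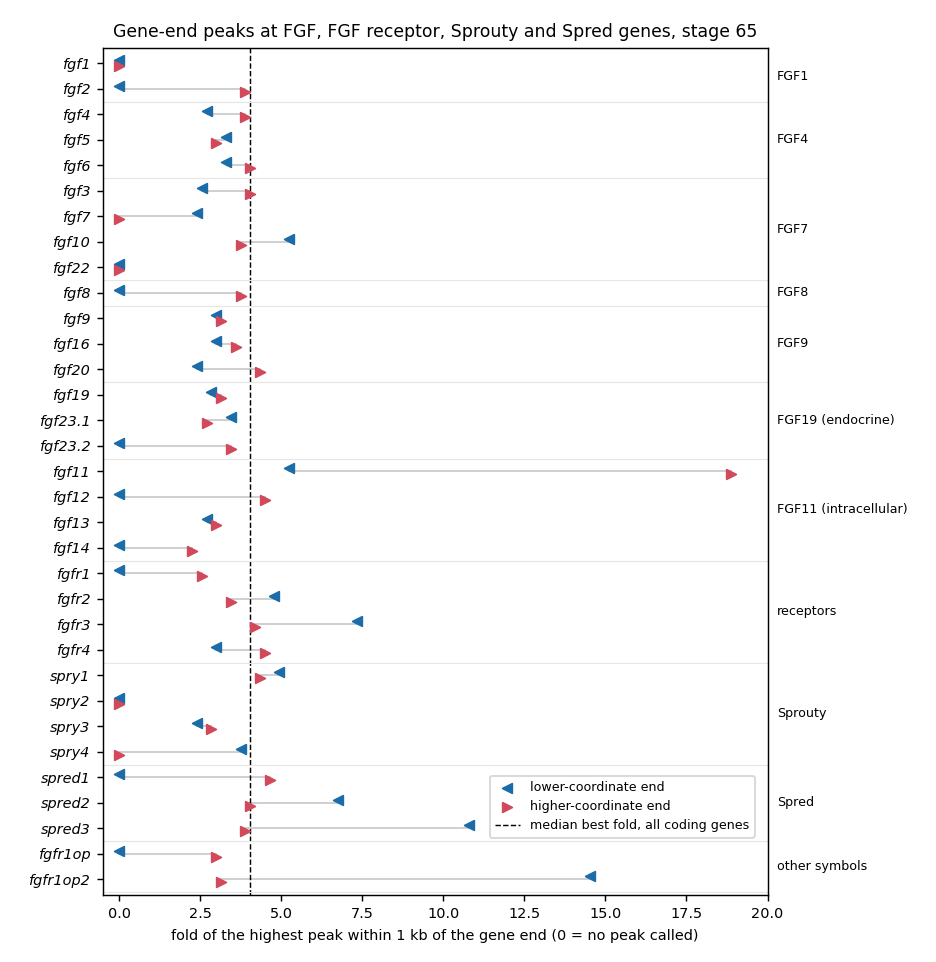
Fold of the highest peak within 1 kb of each end of the 33 genes (rows, grouped by subfamily), with triangles for the lower- and the higher-coordinate end, 0 where no peak was called, and a dashed line at the median best fold of all coding genes (4.04). Most genes lie between 2 and 5, and fgf11, spred3 and fgfr1op2 stand to the right with folds of 18.9, 10.8 and 14.5.

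Of the 2 genes of the FGF1 subfamily 1 had a gene-end peak, against 85.7% of all coding genes. Both proteins of the subfamily, FGF1 and FGF2, leave cells without a classical signal peptide. No gene-end peak was called at fgf1 (chromosome 3, 37101500 to 37152767), which held 11 peaks in its body and 8 in its flanks, the strongest with a fold of 4.34. At fgf2 (chromosome 1, 65933393 to 65960037) the higher-coordinate end carried a peak with a fold of 3.89 (25 fragments at the summit, Poisson 95% interval 16.2 to 36.9), centred 32 bp beyond the end. The other end of fgf2 lies inside the neighbouring gene nudt6 and had none. With 5 peaks in its body and 5 in its flanks, fgf2 had a peak density at percentile 8.56 of the other genes in its length bin.

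The FGF4 subfamily had peaks at both ends of all 3 members, against 45.2% of all coding genes. The best folds were 3.89 at fgf4, 4.04 at fgf6, a ligand known from muscle, and 3.29 at fgf5, known in mammals as a brake on hair growth. Within the body, fgf4 (11.5 kb) held 5 peaks that covered 50.9% of it, the highest with a fold of 5.99. By contrast, fgf5 spans 46.6 kb with 5 peaks and had 1 peak in each 20 kb flank. Its density over body and flanks, 0.81 peaks per 10 kb, was at percentile 0.644 of its length bin. At fgf6 the 5 body peaks and 10 flank peaks gave 2.40 peaks per 10 kb, percentile 46.8.

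In the FGF7 subfamily the spread was wide. The limb bud ligand fgf10 (chromosome 1, 194526881 to 194599076) had a fold of 5.24 at its lower-coordinate end (34 fragments, 23.5 to 47.5) in a peak 2786 bp wide, and 3.74 at the other. Its strongest site lay inside the gene, 12.1 kb from that lower end, at 194537030 to 194541773 with a fold of 22.8 (151 fragments at the summit), and a second at 194534481 to 194536513 had a fold of 14.5. Of the 15 peak summits inside fgf10, 8 lay in the lower-coordinate part, 4 in the middle and 3 in the higher-coordinate part, with the body cut into 3 equal parts. At fgf3, a ligand of inner ear development, the ends carried folds of 2.55 and 4.04, while body peaks reached 12.0 and covered 54.1% of the gene. The keratinocyte growth factor gene fgf7 had a single gene-end peak with a fold of 2.40 (15 fragments, 8.40 to 24.7). Every peak in the body and flanks of fgf7, this one included, also overlaps another coding gene, fam227b. The density at fgf7, 0.80 peaks per 10 kb, was the smallest of all 33 members and stood at percentile 1.06 of its length bin. At fgf22 (chromosome 1, 105788812 to 105793863), known in mouse for organising synapses, no peak was called at either end or anywhere in the body. Among the 33 members fgf22 alone had an empty body, whereas 92.0% of all coding genes had a body peak. Other genes in the bin of its short length (5.05 kb) were empty too. With ties taken at their middle rank, a body density of 0 stood at percentile 9.45 of that bin. Its 8 flank peaks included one with a fold of 9.58, which overlaps the neighbouring gene rnf126.

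The 1 member of the FGF8 subfamily, fgf8 (chromosome 7, 31012194 to 31021892), a ligand of the tail bud and of the limb bud's outer ridge, had a peak at its higher-coordinate end only, with a fold of 3.74 (24 fragments, 15.4 to 35.7). No peak in its body or flanks exceeded a fold of 4.04, and peaks covered 10.3% of them, against 17.9% at the median coding gene.

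In the FGF9 subfamily, fgf9 and fgf16 were densely marked inside and fgf20 was not. These ligands act between epithelium and mesenchyme, and FGF9 is known in mouse for cartilage growth. All 3 had peaks at both ends, against 45.2% of all coding genes. The best folds were 3.14 at fgf9, 3.59 at fgf16 and 4.34 at fgf20. The body of fgf9 held 17 peaks over 38.6 kb, or 4.40 per 10 kb, at percentile 95.8 of its length bin, and that of fgf16 held 11 over 26.1 kb, or 4.22 per 10 kb, at percentile 91.2. Most of these sites were modest, since the highest fold in a body was 7.49 at fgf9 and 4.04 at fgf16. A stronger peak, with a fold of 21.4, lay 19.9 kb from the lower-coordinate end of fgf16. At fgf20 (4.01 kb) a single peak in the body gave 2.49 per 10 kb, percentile 35.7.

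The endocrine ligands act at a distance through Klotho co-receptors. FGF19 controls bile acid synthesis and FGF23, made by bone cells in mammals, lowers blood phosphate. All 3 genes of this subfamily had a gene-end peak, as did 85.7% of all coding genes. The best folds were 3.14 at fgf19, 3.44 at fgf23.1 and 3.44 at fgf23.2, each within the counting error of the others (20, 22 and 22 fragments, with intervals that overlap). No peak with a fold over 3.89 overlapped the body of any of them. Their flanks held 3.75, 3 and 3.25 peaks per 10 kb, against a median of 2.5 over all coding genes and 2.75 in their length bin. These values stood at percentiles 82.7, 60.7 and 68.6 of that bin. The flanks of fgf23.1 and fgf23.2 overlap and share peaks.

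**Figure D2:**
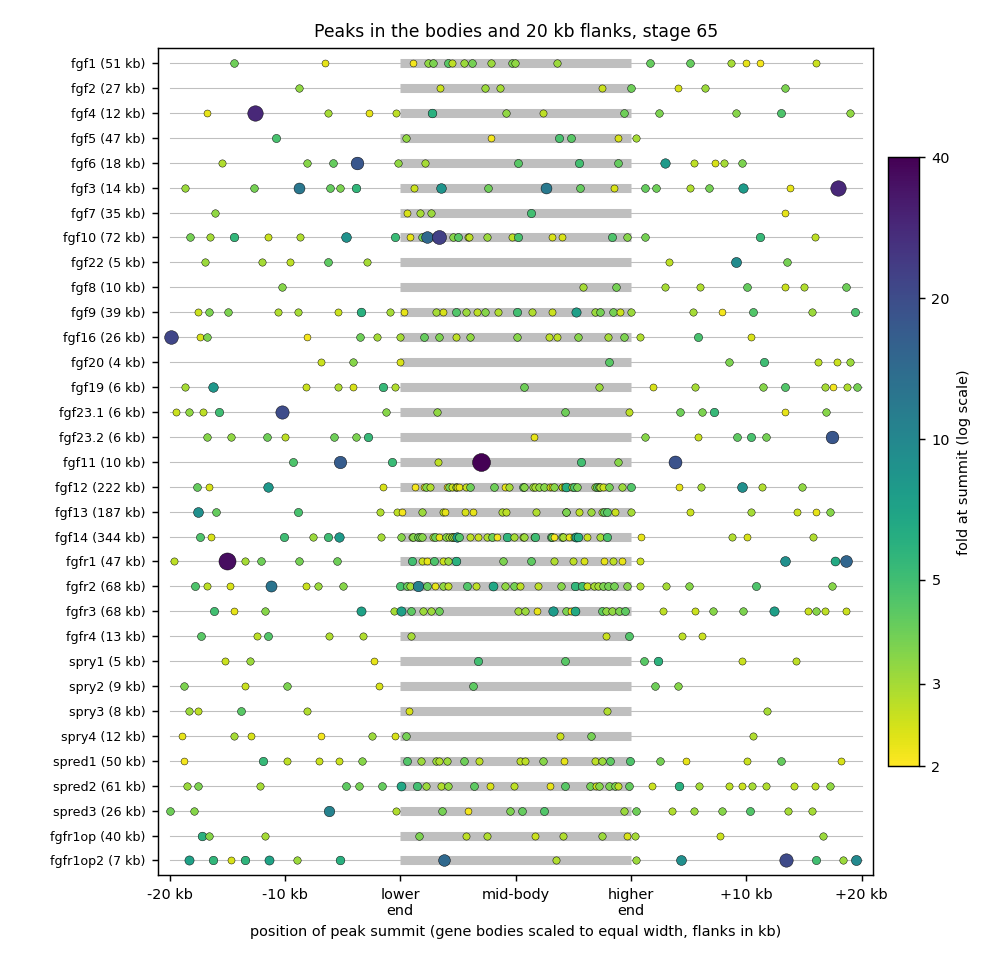
Summits of stage 65 peaks (dots, larger and darker for a higher fold, colour on a log scale) in the body of each of the 33 genes, drawn to equal width, and within 20 kb of its ends. The strongest dots lie in flanks or bodies rather than at ends, as at fgf3 and fgf4 (28.6), fgfr1 (36.1) and fgf11 (40.3).

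The intracellular FGF11 subfamily held both the strongest and some of the weakest gene-end peaks. At fgf11 (chromosome 3, 152811564 to 152821723) the 1 kb window at the higher-coordinate end overlapped a peak with a fold of 18.9 (125 fragments, 104.05 to 148.9). That peak starts at 152822319, outside the gene, is 4964 bp wide and has its summit 3859 bp beyond the end. A separate peak across the end itself had a fold of 3.44. When peaks were assigned by summit, the best gene-end fold of fgf11 was 5.24. A body peak at 152814196 to 152818610 had a fold of 40.3, the highest in any member's body or flanks, and 76.4% of the gene was covered. The gene lies 1.05 Mb from the last peak of its chromosome, nearer than any other member to a chromosome end. What that position contributes to these values was not tested. The other 3 genes are long, and 2 of them, fgf13 and fgf14, are sparse for their length. Best gene-end folds were 4.49 at fgf12 (221.9 kb), 2.99 at fgf13 (186.9 kb) and 2.25 at fgf14 (343.8 kb), the last with 14 fragments at the summit (7.65 to 23.5). Their bodies held 39, 18 and 39 peaks, or 1.76, 0.963 and 1.13 per 10 kb, at percentiles 43.7, 7.68 and 12.5 of the bin of the longest genes. Within that bin fgf14 is much longer than the median gene of 123.8 kb. Body folds stayed at or under 7.94, and the longest stretch inside fgf14 without a summit ran for 35.7 kb.

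All 4 receptor genes had a gene-end peak, as did 85.7% of all coding genes. Among members' peaks with a summit within 1 kb of an end, the highest fold was at fgfr3. FGFR3 holds back growth plate cartilage in mammals. The fold at the lower-coordinate end of fgfr3 (chromosome 1, 20843644 to 20911445) was 7.34 (48 fragments, 35.4 to 63.6), in a peak 1268 bp wide whose summit lay 344 bp inside the gene. The other end carried a fold of 4.19. At fgfr2 the ends had folds of 4.79 (31 fragments, 21.1 to 44.002; summit 32 bp from the end) and 3.44, and at fgfr4, known for roles in muscle and liver, 2.99 and 4.49. At fgfr1 only the higher-coordinate end carried a peak, with a fold of 2.55 (16 fragments, 9.15 to 26.0). With these windows of 1 kb its counting interval does not overlap that of fgfr3, whereas those of fgfr2 and fgfr4 overlap both. The value at fgfr1 depends on the window. It was 4.94 with windows of 2.5 kb, and no peak was called with 500 bp, while fgfr3 stayed at 7.34 in both. Inside the genes, fgfr2 held 25 peaks and fgfr1 held 15, or 3.65 and 3.19 per 10 kb, at percentiles 89.3 and 81.0 of their length bin. The corresponding values were 2.51 at fgfr3 and 2.36 at fgfr4. The strongest site near a receptor gene lay at 130924628 to 130928031 on chromosome 3, 15.0 kb from the lower-coordinate end of fgfr1, with a fold of 36.1 (240 fragments) and a width of 3404 bp. No coding gene of the table overlaps that peak, and the next gene on that side, nodal6, ends 105.2 kb from fgfr1. Around fgfr2, folds of 12.6 (flank) and 10.9 (body) were reached. Around fgfr4 no peak exceeded 4.49.

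Sprouty genes, which encode feedback inhibitors of receptor tyrosine kinase signalling, lay in sparsely marked surroundings. Gene-end folds were 4.94 and 4.34 at spry1, 2.40 and 2.84 at spry3, and 3.74 at the lower-coordinate end of spry4. The spry1 peaks reach the windows by their edges, with summits 1721, 1470 and 1113 bp from the ends, and assignment by summit left spry1 without one. No gene-end peak was called at spry2 (chromosome 2, 125068868 to 125077825), whose body held 1 peak with a fold of 4.19, centred 2808 bp from the nearer end. The flanks of the 4 genes held 1.25 to 1.75 peaks per 10 kb, against a median of 2.5 over all coding genes, at percentiles 6.16 to 19.5 of their length bins. Peaks covered 14.5% of body and flanks at spry1 and 6.39% to 8.996% at the other 3. No peak within 20 kb of a Sprouty gene exceeded a fold of 5.84. That maximum depends on the limit at spry1, since a peak with a fold of 19.6 begins just beyond its 20 kb flank. Whether Sprouty genes differ from other genes in these densities and folds was not tested, since the pattern was noticed after their values were seen.

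The Spred genes, whose proteins also damp this relay, had fuller flanks than the Sprouty genes. The fold was 6.74 at the lower-coordinate end of spred2 (chromosome 5, 31852319 to 31912940; 44 fragments, 31.97 to 59.1), in a focal peak of 912 bp centred 109 bp from the end, and 4.04 at its other end. At spred1 only the higher-coordinate end was occupied, with a fold of 4.64. At spred3 the 1 kb window at the lower-coordinate end overlapped the edge of a domain 9020 bp wide. That domain stops short of the gene and had a fold of 10.8, with a summit 6154 bp away. By summit, the best gene-end fold of spred3 was 3.89. Flanks held 3, 4.25 and 3 peaks per 10 kb at spred1, spred2 and spred3, against a median of 2.5 over all coding genes. These values stood at percentiles 66.6, 95.4 and 65.1 of their length bins. All 3 flank values were above the 4 Sprouty values, with 3 and 4 genes to compare and no test. Spred bodies held 3.004, 2.80 and 2.74 peaks per 10 kb. Sprouty bodies overlapped this range, with 3.92, 1.12, 2.40 and 2.57 at spry1 to spry4.

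The 2 further symbols differed from each other. At fgfr1op, which encodes a centrosomal protein, the higher-coordinate end had a fold of 2.99, and that peak also overlaps the neighbour adss2. At fgfr1op2 the fold was 14.5 in a peak 5475 bp wide that also overlaps ints13, a gene 82 bp away. Peaks covered 75.2% of fgfr1op2 and its flanks, percentile 98.6 of its length bin, and 6 of its 16 peaks were wider than 2 kb.

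Gene-end folds over 8 thus came in each case from a broad peak with its summit more than 1 kb from the end. The peaks at fgf11, spred3 and fgfr1op2 were 4964, 9020 and 5475 bp wide, with summits 3859, 6154 and 1301 bp from the end. With windows of 500 bp the best gene-end fold was 5.24 at fgf11 and 3.89 at spred3, but it stayed at 14.5 at fgfr1op2. With summit assignment the highest gene-end folds among members were 7.34 at fgfr3, 6.74 at spred2 and 5.24 at both fgf10 and fgf11.

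The strongest peak of each gene's body and 20 kb flanks lay at a gene end in 4 of 33 members (12.1%, 3.40 to 28.2), against 15.6% of all coding genes and 15.8% in the same length bins. It lay in a flank in 22 of 33 (66.7%, 48.2 to 82.0), against 64.7% and 60.5%. Its fold was at least 10 in 12 of 33 (36.4%, 20.4 to 54.9), against 39.8% and 39.2%. The same peak is counted for both fgf3 and fgf4. The intervals again include the values of other genes. The 33 bodies and flanks held 602 distinct peaks with a median fold of 3.14 (interquartile range 2.69 to 4.04), against 3.29 (2.69 to 4.19) over all 311385 peaks on chromosomes 1 to 10. Of the 602 peaks, 21 had a fold of 10 or more (3.49%), against 5.05% of all peaks on chromosomes 1 to 10. Of these 21, 19 were wider than 2 kb (90.5%, 69.6 to 98.8). The value for all peaks of such fold on chromosomes 1 to 10 was 70.5%, which the interval includes. Peaks in a member's flank, clear of its body and end windows, made 281 pairs of peak and member, a shared peak counting for each member. In 45 of these pairs (16.0%) the peak overlapped another coding gene, in some cases another member. Position near a member therefore does not assign a peak to it.

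Inside gene bodies the peak density was close to that of other genes. The median was 2.51 peaks per 10 kb over members, 2.51 over all coding genes and 2.42 in the same length bins. By percentile within the length bin, 9 of 33 members lay above 75 and 6 below 25, where by construction 25% of all genes fall on each side. The dense ones were fgf3, fgf4, fgf9, fgf11, fgf16, fgf23.1, fgfr1, fgfr2 and spred1, and the sparse ones were fgf5, fgf7, fgf13, fgf14, fgf22 and spry2. Over body and flanks, fgf9, fgf3 and fgf19 had the most peaks (3.82, 3.71 and 3.67 per 10 kb), and fgf7, fgf5 and fgf13 the fewest (0.80, 0.81 and 1.23). The median share of body and flanks covered by peaks was 17.5% over members, 17.9% over all coding genes and 17.4% in the same length bins.

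**Figure D3:**
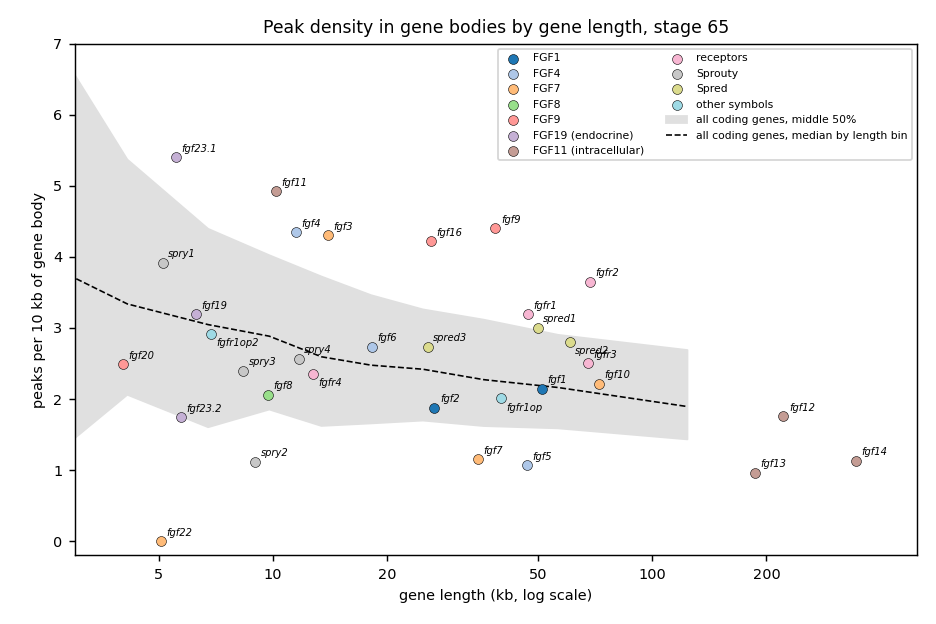
Peaks per 10 kb of gene body (vertical axis) against gene length in kb (log scale) for the 33 genes, coloured by subfamily, with the median (dashed) and middle 50% (grey) of all coding genes by length bin, drawn up to the median length of the longest bin. The points fgf9 (4.40) and fgf16 (4.22) lie above the grey band, and fgf5 (1.07), fgf7 (1.15) and fgf22 (0) lie below it.

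Several members sit beside each other, and these neighbourhoods differed. On chromosome 4, fgf3, fgf4 and fgf19 follow one another, with 30.5 kb between the first pair and 43.97 kb between the second. With 20 kb to each side this region held 49 peaks, or 3.35 per 10 kb, which covered 31.6% of it. The stretch between fgf3 and fgf4 held 10 peaks, and the strongest, at 12791006 to 12794128, had a fold of 28.6 (190 fragments, 163.9 to 219.02). That is at percentile 93.8 among the best folds of 3338 stretches between neighbouring coding genes of a length within 1.5 times, whose median was 6.14. Between fgf4 and fgf19 the best fold was 8.23, percentile 56.9.

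On chromosome 3, fgf6, fgf23.1 and fgf23.2 form a second group, separated by 57.9 and 9.99 kb. Between fgf6 and fgf23.1 were 17 peaks covering 42.4% of the stretch, against a median of 17.8% in 2144 stretches of similar length (percentile 87.4). The strongest were at 11223625 to 11226003 (fold 25.5) and at 11241375 to 11251079 (fold 20.1, a domain of 9705 bp). Peaks with a fold of 18.0 also lay on each outer side of the group. The one at 11174744 to 11177145 had its summit 3.73 kb from fgf6, and the one at 11293735 to 11295141 lay beyond fgf23.2. The 3 genes themselves had body folds of at most 4.94, so the strong sites of this group lay outside their bodies.

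The pair fgf1 and spry4, also on chromosome 3, showed the reverse. The 155.03 kb between them held 37 peaks, or 2.39 per 10 kb, against a median of 1.96 in 998 stretches of similar length, but the best fold was 4.34 (28 fragments), at percentile 3.96 and against a median best fold of 10.7. In the whole region of 258.0 kb no peak exceeded that fold. On chromosome 1, spry1 and fgf2 lie 266.9 kb apart with spata5 and nudt6 in between. Of 51 peaks in that region 1 had a fold over 10, where 5.05% of all peaks on chromosomes 1 to 10 had a fold of at least 10. That peak lay between spry1 and spata5, just beyond the 20 kb flank of spry1, at 65687145 to 65689043, with a fold of 19.6.

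**Figure D4:**
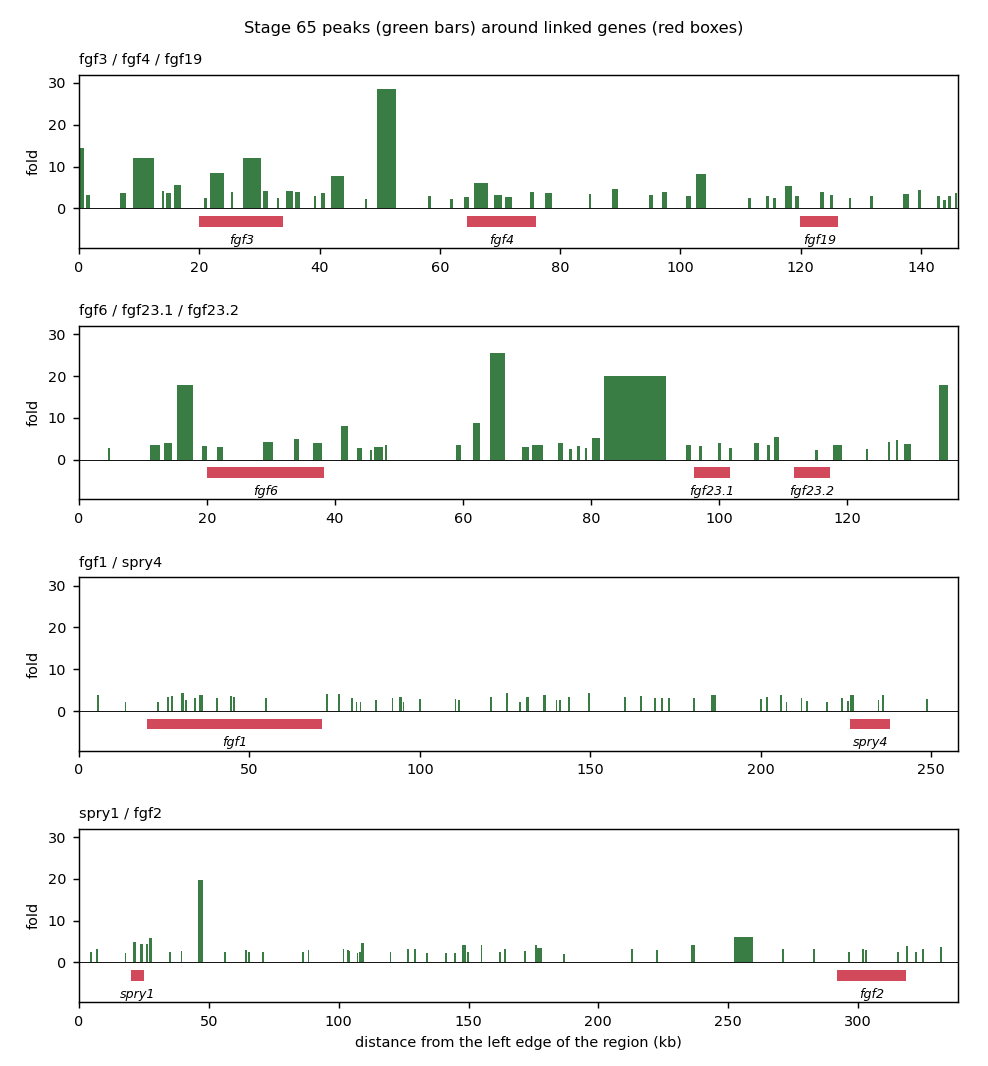
Stage 65 peaks (green bars, height giving the fold and width the peak's length) against distance in kb across 4 regions that hold linked members (red boxes), with 20 kb beyond the outer genes; other genes are not drawn. Peaks with a fold of 10 or more number 4 of 49 in the fgf3, fgf4, fgf19 region and 4 of 39 in the fgf6, fgf23.1, fgf23.2 region. The fgf1 and spry4 region has 0 of 54. Over all peaks on chromosomes 1 to 10 the share is 5.05%, and no test was made.

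Other genes of the pathway were read in the same way from 3 lists. Co-receptors, binding proteins and heparan sulfate enzymes had a gene-end peak at 25 of 27 genes (92.6%, 75.7 to 99.09), against 86.6% in their length bins, with a median best fold of 4.79. Among them were fgfrl1, a receptor without a kinase (fold 11.1), the heparan sulfate polymerase gene ext2 (8.98), the sulfatase gene sulf2 (8.38) and the Klotho genes klb (5.09) and kl (4.79). None was called at fgfbp3 or gpc3. The signal relay downstream of the receptors had one at 20 of 20 genes (100%, 83.2 to 100), against 87.3% in their length bins, with a median fold of 4.72. The folds were 3.44 at the adaptor gene frs2 and 4.34 at grb2. Larger folds at shc1 (19.01) and braf (13.3) stood in stretches of which peaks covered 69.3% and 59.3%. Targets and feedback genes had one at 19 of 21 (90.5%, 69.6 to 98.8), against 86.1% in their length bins, with a median fold of 4.64. They included the phosphatase gene dusp6 (5.99), a standard readout of FGF signalling, the receptor antagonist gene il17rd (17.5) and the cyclin gene ccnd1 (9.58), and neither etv4 nor cdx4. The mesoderm gene tbxt had a fold of 2.40. Folds in these lists were read by overlap, so a summit may lie beyond the 1 kb window. Peaks covered 43.8% of body and flanks at il17rd, 45.2% at ext2, 40.1% at ccnd1, 36.0% at sulf2 and 21.7% at fgfrl1. All 3 intervals include the share of the length bins. For comparison, the median best fold in the matching length bins was 4.04 for each list. Symbols of 3 further listed genes, map2k2, mapk3 and etv5, were not matched.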

How the data were processed

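ATAC-seq peak lists of 3 libraries, 1 per stage, were used as deposited. Per the submitters' processing notes the tools were Bowtie2, Picard, MACS2 and Genrich. Versions, roles, genome build and read filters are not given in the sources used. In the deposited stage 65 list the signal column is a fold (a ratio), beside −log10 p, −log10 q and a score that is 10 times the −log10 q. The deposited signal column of stages 56 and 61 holds a peak area, and those lists were only counted. All deposited folds under 100 (100%) fell on whole multiples of 0.150, to within 0.01. If 1 is added to pileup and background, that step gives a background pileup of 5.68. That formula is inferred, and the pileup is assumed to count fragments. The median summit pileup was 21 fragments. Total reads are unknown.

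Gene spans came from the RefSeq table of UCB_Xtro_10.0. A peak overlapping by at least 1 bp counted at a gene end (1 kb to each side), in the body or in a 20 kb flank. Each member was set beside all coding genes and the other genes of its length bin (10 equal bins). Shares carry Clopper-Pearson and pileups Poisson 95% intervals. Python 3.11.15, pandas 2.3.3 and scipy 1.17.1 were used, and interval functions were checked on simulated data. Members, lists and rules were chosen with earlier results of these data known. Every member is named, with fuller values for the highest gene-end folds of each subfamily, members without a gene-end peak, and the densest and sparsest. Peaks at gene starts and promoter motifs, both planned, were not analysed here, because the table used has no strand and no sequence was used. Values of some listed pathway genes are not reported here.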

Additional observations from a re-analysis of the deposited data

How the results depend on the processing

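Of 26 alternative values of the 5 summaries, 23 lay inside the interval of the reported one, and all 3 exceptions came from keeping only peaks with a −log10 q of at least 5. That setting gave a gene-end peak at 72.7% of members, against 72.9% of all coding genes, with 1.71 peaks per 10 kb of body against 1.40, and 1.25 per 10 kb of flank against 1.5. It removed the gene-end peaks of fgf7, fgf13, fgf14, fgfr1, spry3 and fgfr1op, whose summits held 14 to 19 fragments. By summit, fgf23.2 and spry1 lost theirs. Windows of 500 bp took them from fgf3, fgf7, fgfr1 and spry1, and windows of 2.5 kb gave one to fgf1 and spry2. Counting gained and lost peaks too, gene-end folds moved beyond counting error at 8 members with windows of 2.5 kb. They moved at 6 with windows of 500 bp, at 6 by summit, at 6 with the −log10 q limit and at 3 with peaks of at most 2 kb. With windows of 2.5 kb the fold of fgf6 rose from 4.04 to 18.0. No paired analysis was possible because each stage has 1 library, and for the same reason no replicate could be left out. Peaks at gene starts, a planned result, were not run. Depth limits the weakest calls: the lowest listed summit held 12 fragments, and a gene without a peak was not called at this depth, which does not show closed chromatin.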
